A study of Mus musculus with 36 samples.

Results

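The 2 mature products of the mouse miR-21a hairpin, mmu-miR-21a-5p and mmu-miR-21a-3p, were followed through small RNA sequencing (miRNA-seq) of mutant and control kidneys from 2 mouse lines that model autosomal dominant polycystic kidney disease (ADPKD). They were chosen by name, as 2 of the 1915 mature miRNAs listed, and their read counts were taken from all 36 libraries. All mice were on the C57BL/6 background. Control kidneys of the Pkd1 model (WT) came from Pkd1f/f animals, which carry loxP sites on both copies of the gene but no Cre, and the deleted kidneys (KO) came from Pkd1f/f:HoxB7-Cre animals. The Pkd2 model was built in the same way from Pkd2f/f and Pkd2f/f:HoxB7-Cre animals. Kidneys were taken 1, 3 or 7 days after birth (P1, P3, P7). Model, age and genotype make 12 groups of n = 3 libraries. HoxB7-Cre is active in the collecting duct and the lineage that forms it, whereas the RNA came from the kidney, so every KO library also holds RNA of nephron, stroma, vessels and blood in which no deletion was induced. Sex, litter and sequencing batch are not in the labels.

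MicroRNAs are cut as a duplex from a hairpin precursor, and one strand of the duplex is usually loaded into Argonaute while the other is degraded. Pairing of the seed, bases 2 to 8 of the mature strand, with a messenger RNA lowers the output of that messenger. miR-21 is among the best known miRNAs of injured, fibrotic and proliferating tissue. In kidney it is known to be raised after ischaemic, obstructive and cystic injury, and Pdcd4 and Ppara are among its described targets.

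The mature sequences are shown because the reads of the arms, and of the near-identical relatives of miR-21a, are told apart by these letters alone. They are the RefSeq sequences on GRCm38.p6, written 5′ to 3′ in RNA letters, with the seed in capitals.
miR-21a-5p: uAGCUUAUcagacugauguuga
miR-21a-3p: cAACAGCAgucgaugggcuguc
miR-21c: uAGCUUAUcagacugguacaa
miR-21b: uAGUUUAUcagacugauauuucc
Both arms of miR-21a are 22 bases long, and G and C make up 36.4% of the 5p arm and 59.1% of the 3p arm. The 5p arm lies at chr11:86584120-86584141 and the 3p arm at chr11:86584082-86584103, both on the minus strand. The 92-base hairpin, gene Mir21a at chr11:86584067-86584158, lies inside exon 12 of Vmp1 (same strand), within the part of that exon annotated as untranslated and downstream of the coding sequence.

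Among the 1679 mature mouse miRNAs of the RefSeq table, the 5p seed AGCUUAU was shared only by miR-21a-5p and miR-21c. The 3p seed AACAGCA was found there only in miR-21a-3p. The counts list 1915 mature miRNAs, and the seeds of those absent from that table were not searched, so further miRNAs may share a seed. miR-590-5p, counted separately, held 1 read over the 36 libraries. miR-21c, encoded at chr8:128278188-128278208, has the same first 15 bases as miR-21a-5p and first departs from it at A16G, with positions counted from 1 at the 5′ end and the base of miR-21a-5p written first. miR-21b, encoded at chr3:29636768-29636790, departs from miR-21a-5p inside the seed at C4U. Reads of these relatives were very few. Over the 36 libraries miR-21b held 207 reads in all and miR-21c 171, against 5228296 for miR-21a-5p. Neither exceeded 29 reads in a library, and in no library did miR-21b reach more than 0.0144% of the miR-21a-5p count. The counts of miR-21b and miR-21c were equal in 20 of the 36 libraries, so reads of those names may have been shared between them.

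Libraries held between 12569939 and 32663566 miRNA reads, with a median of 24008082. Counts were scaled to normalised counts per 1000000 reads (CPM) with trimmed mean of M values (TMM) factors, which ran from 0.395 to 2.41. The sum of miR-10a-5p and miR-10b-5p (the miR-10 share) took between 31.4% and 81.0% of the reads of a library. The labelled tissue was checked against its markers: miRNAs of the proximal tubule and nephron (miR-192-5p, miR-194-5p, miR-215-5p, miR-802-5p and miR-204-5p) summed to 4063 CPM or more in every library, and the epithelial miR-200 family to 2266 CPM or more. miR-122-5p of liver did not exceed 274 CPM. The 4 miRNAs of skeletal and heart muscle reached a sum of 1549 CPM in WT kidneys of the Pkd1 model at P1.

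miR-21a-5p was the main arm in all 36 libraries, with 39796 to 318860 reads. miR-21a-3p held 92 to 6392 reads, well above the floor of 3 reads taken as undetected. The 5p count exceeded the 3p count by between 43.3 and 467 times. In the 30 libraries other than the P7 KO kidneys miR-21a-5p ranked between 17 and 34 among all miRNAs of its library. It ranked between 7 and 12 in the 6 P7 KO libraries. miR-21a-3p ranked between 156 and 309 in the former and between 100 and 170 in the latter. Within groups the SD of log2 CPM was 0.267 for miR-21a-5p and 0.580 for miR-21a-3p, where the median of the 775 miRNAs tested over all libraries was 0.445. The 5p arm was thus measured with less spread than most miRNAs and the 3p arm with more.

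The first comparison asked whether loss of Pkd1 or Pkd2 in the collecting duct changed the level of each arm, at each age. In both models the answer for miR-21a-5p was a higher level in KO kidneys at P7, with no difference called at P1 or P3. miR-21a-3p was also higher by CPM in all P7 KO libraries than in any P7 WT library of its model. The same held for 6.23% of miRNAs with Pkd1 and 13.5% with Pkd2, and the adjusted p of miR-21a-3p stayed above 0.05 in both models.

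At P7 in the Pkd1 model the WT libraries held 7671, 7783 and 8003 CPM of miR-21a-5p. The KO libraries held 20925, 21723 and 18498 CPM. The groups did not overlap, and the lowest KO library lay well above the highest WT library, as 6.23% of the 706 miRNAs tested in this comparison did. The means were 7819 ± 169 and 20382 ± 1680 CPM (SD, n = 3 in each), a 2.61-fold difference. In the edgeR quasi-likelihood test the log2 fold change was 1.45 (SE 0.17) with an adjusted p of 0.00017. This was the lowest p of the 706 miRNAs, of which 0.425% (3 miRNAs) were called by edgeR. DESeq2 called 18 miRNAs in this comparison, and 72 had an unadjusted edgeR p under 0.05. Among the 58 miRNAs with at least 1000 CPM in this comparison, miR-21a-5p had the largest rise. As a share of all reads without any scaling factor, miR-21a-5p took 0.310%, 0.307% and 0.595% in the WT libraries and 0.975%, 1.31% and 0.877% in the KO libraries, again without overlap, as for 4.25% of miRNAs by this measure. In bulk kidney RNA, more cells that hold a miRNA and more of it per cell cannot be told apart.

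The 3p arm in the same libraries was measured at 35.0, 33.6 and 108 CPM in WT and at 210, 342 and 183 CPM in KO. The third WT library was the highest of the WT libraries, and all of them lay below all KO libraries, as for 6.23% of the 706 miRNAs. The means were 59.0 ± 42.8 and 245 ± 85.2 CPM (SD, n = 3 in each), a 4.15-fold difference. The log2 fold change was 2.12 (SE 0.51), larger than that of the 5p arm and with a larger error. In the edgeR test the adjusted p was 0.0848, from an unadjusted p of 0.00084 that ranked 7 among the 706 miRNAs. With the third WT library left out the edgeR adjusted p was 0.0271 and the log2 fold change 2.81, and with any other library left out the adjusted p lay between 0.123 and 0.280, with the lowest log2 fold change of 1.84 without WT library 2. DESeq2 gave an adjusted p of 0.00406, edgeR with a miR-10 covariate 0.00708, and a single edgeR fit of all 36 libraries 0.0205. The other 7 alternatives gave no call, with edgeR adjusted p up to 0.995 with library totals alone.

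**Figure D1:**
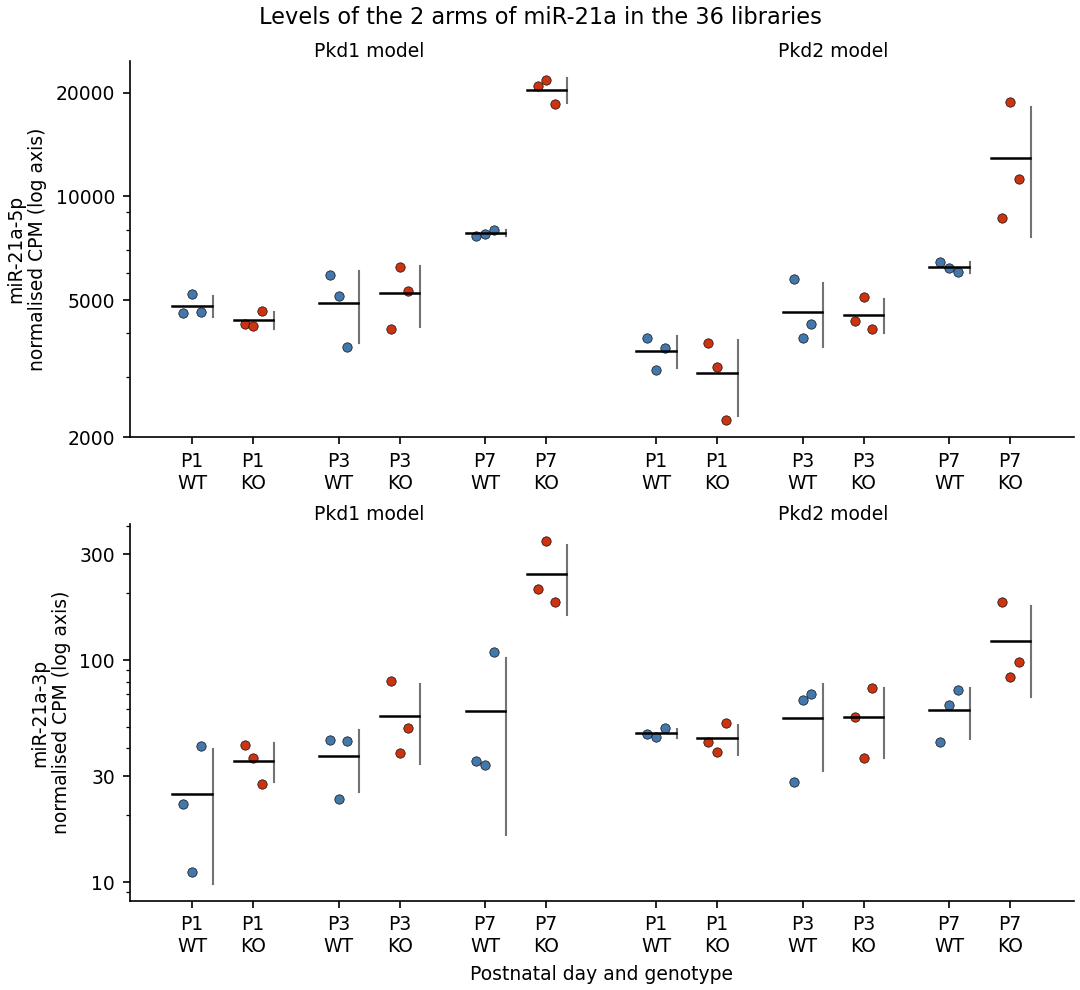
Normalised CPM (log axis) of miR-21a-5p (upper panel) and miR-21a-3p (lower panel) in each library, by model, postnatal day and genotype (blue, WT; red, KO). Points are libraries, horizontal lines the means and vertical lines the mean ± SD of 3 libraries. At P7 all KO libraries of a model lie above all its WT libraries in both panels, at 8629 CPM or more for miR-21a-5p against 8003 or less. The same holds for 6.23% of miRNAs with Pkd1 and 13.5% with Pkd2.

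At P7 in the Pkd2 model the WT libraries held 6443, 6197 and 6021 CPM of miR-21a-5p. The KO libraries held 8629, 18788 and 11263 CPM. The KO values spread over a 2-fold range, with the second library highest, but none overlapped the narrow WT range. In this comparison 13.5% of the 746 miRNAs tested had all KO libraries above all WT libraries. The means were 6221 ± 212 and 12893 ± 5272 CPM (SD, n = 3 in each), a 2.07-fold difference. In the edgeR test the log2 fold change was 1.11 (SE 0.25) with an adjusted p of 0.0147, where 12.6% of miRNAs were called. Its p ranked 15 of 746, and its rise was the fifth among 61 miRNAs with at least 1000 CPM. The unscaled shares of reads were 0.446%, 0.583% and 0.652% in WT and 1.14%, 0.916% and 1.19% in KO, which did not overlap either, as for 6.97% of miRNAs. The highest KO library by CPM, the second, was the lowest by share of reads.

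The call in the Pkd2 model rested on few libraries. With WT library 2, WT library 3 or KO library 3 left out, the edgeR adjusted p was 0.0657, 0.0558 and 0.0621. With KO library 2 left out the log2 fold change was 0.70 and the edgeR adjusted p 0.0274. For the Pkd1 model the edgeR adjusted p stayed between 0.000884 and 0.00971 whichever of the 6 libraries was left out. With library totals alone in place of TMM factors both calls were lost, at a log2 fold change of 1.38 for Pkd1 (SE 0.37; edgeR adjusted p = 0.904) and 0.95 for Pkd2 (SE 0.24; edgeR adjusted p = 0.0624).

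The 3p arm in the Pkd2 model at P7 was measured at 42.9, 62.5 and 73.3 CPM in WT and at 183, 83.9 and 97.7 CPM in KO. By CPM the order of the KO libraries was the reverse of that of the 5p arm: the library with most miR-21a-5p had least miR-21a-3p. By unscaled share of reads that library, the second, was the lowest for both arms (0.916% and 0.00409%). The WT and KO groups did not overlap in CPM, where 13.5% of miRNAs had all KO libraries above all WT libraries. Their unscaled shares of reads did overlap (0.00297% to 0.00793% in WT, 0.00409% to 0.0243% in KO). The means were 59.6 ± 15.4 and 122 ± 53.7 CPM (SD, n = 3 in each). The log2 fold change was 1.10 (SE 0.36), with an edgeR adjusted p of 0.0576. The edgeR adjusted p was 0.0315 with KO library 2 left out, and the log2 fold change was 0.67 with KO library 1 left out. DESeq2 gave an adjusted p of 0.0332, edgeR without a low-count filter 0.0419, edgeR with library totals less miR-10 reads 0.0381, and edgeR with a miR-10 covariate 0.000234.

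At P1 and P3 the 5p arm of KO and WT kidneys overlapped in both models. At P1, Pkd1 WT libraries held 4597, 5201 and 4621 CPM and KO libraries 4248, 4203 and 4659 CPM, and the edgeR log2 fold change was -0.08 (SE 0.16, adjusted p = 0.806). At P3 the WT libraries held 5921, 5146 and 3666 CPM and the KO libraries 4124, 6242 and 5314 CPM, and it was 0.10 (SE 0.16; edgeR adjusted p = 0.927). By unscaled share of reads at P1 all KO libraries (0.462% to 0.466%) lay above all WT libraries (0.330% to 0.443%), as for 30% of miRNAs. With library totals alone the log2 fold change was 0.34 (SE 0.36; edgeR adjusted p = 0.697), where the median of all miRNAs was 0.38. Relative to the median miRNA, miR-21a-5p was thus slightly lower in KO under both scalings.

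At P1, Pkd2 WT libraries held 3881, 3133 and 3626 CPM of miR-21a-5p and KO libraries 3750, 3201 and 2248 CPM, and the edgeR log2 fold change was -0.17 (SE 0.24, adjusted p = 0.981). At P3 the values were 5744, 3881 and 4269 CPM in WT and 4353, 5098 and 4125 CPM in KO, and it was -0.06 (SE 0.24; edgeR adjusted p = 1). In these 4 comparisons 0% of miRNAs were called by edgeR. DESeq2 called 6 miRNAs in the Pkd1 model at P1, 4 at P3 and 0 at both ages in the Pkd2 model. At an unadjusted edgeR p under 0.05 there were 59, 64, 41 and 11 miRNAs, and miR-21a was not among them.

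The 3p arm at these ages was low, between 11.1 and 80.4 CPM, and overlapped between genotypes in both models. At P1, Pkd1 WT libraries held 22.4, 11.1 and 40.8 CPM and the KO libraries 41.6, 36.1 and 27.7 CPM. At P3 they held 43.5, 23.7 and 43.2 CPM in WT and 80.4, 38.0 and 49.2 CPM in KO. The log2 fold changes were 0.54 (SE 0.50) and 0.63 (SE 0.49), with edgeR adjusted p of 0.676 and 0.743.

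The 3p arm of the Pkd2 model held 46.6, 44.8 and 49.2 CPM in WT and 42.8, 38.4 and 51.9 CPM in KO at P1. At P3 it held 28.2, 66.0 and 70.6 CPM in WT and 55.6, 36.2 and 74.9 CPM in KO. The log2 fold changes were -0.02 and 0.00, each with an SE of 0.36 (edgeR adjusted p of 0.991 and 1).

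**Figure D2:**
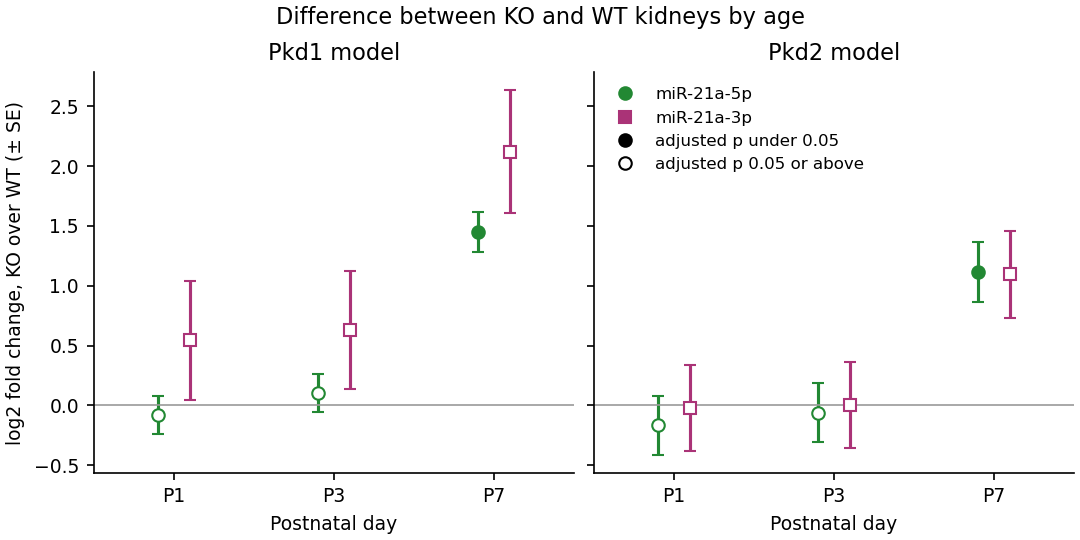
Log2 fold change of KO over WT at P1, P3 and P7 for miR-21a-5p (circles) and miR-21a-3p (squares), with the SE of the edgeR fit, in the Pkd1 (left) and Pkd2 (right) models. Filled symbols have an adjusted p under 0.05. They are the 5p values at P7, 1.45 and 1.11, while the 3p values of 2.12 and 1.10 carry larger errors.

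The change of the KO effect with age was tested as an interaction. For Pkd1 the log2 fold change of miR-21a-5p at P7 exceeded that at P1 by 1.53 (SE 0.23; edgeR adjusted p = 0.00514). It was the single miRNA called by edgeR of 706, or 0.142%. DESeq2 called 4 miRNAs for this difference, and 85 had an unadjusted edgeR p under 0.05. The adjusted p of miR-21a-5p lay between 0.0101 and 0.0479 over the 12 edgeR fits that each left out 1 library. The call was lost with library totals alone (1.05; edgeR adjusted p = 0.814) and with the replicate number as a block (1.53; edgeR adjusted p = 0.172). For Pkd2 the difference was 1.28 (SE 0.35) with an edgeR adjusted p of 0.11, where 0.536% of miRNAs were called. DESeq2, which called 34 miRNAs there, gave an adjusted p of 0.0268, and the edgeR fit without P7 KO library 1 gave 0.0282. For miR-21a-3p the differences were 1.58 (SE 0.70) for Pkd1 and 1.12 (SE 0.51) for Pkd2, with edgeR adjusted p of 0.396 and 0.284.

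The models were compared at P7 in a single fit of all 36 libraries. The KO effect on miR-21a-5p was larger in the Pkd1 than in the Pkd2 model by 0.33 on the log2 scale (SE 0.31), and that on miR-21a-3p by 1.02 (SE 0.63). Neither passed the edgeR test (adjusted p of 0.648 and 0.494), where 0.387% of 775 miRNAs were called.

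The second comparison followed the arms through the first postnatal week of the control kidneys. miR-21a-5p rose in WT kidneys of both models between P1 and P7. All P7 libraries of the Pkd1 model, at 7671 to 8003 CPM, lay above all P1 libraries, at 4597 to 5201 CPM, as for 14.6% of miRNAs. The log2 fold change was 0.79 (SE 0.16; edgeR adjusted p = 0.0042), where 21.5% of miRNAs were called. The Pkd2 libraries held 6021 to 6443 CPM at P7 and 3133 to 3881 CPM at P1, again without overlap, as for 24.3% of miRNAs. The log2 fold change was 0.74 (SE 0.25; edgeR adjusted p = 0.034), where 28.3% of miRNAs were called. This call was lost whichever of the 6 libraries was left out, with edgeR adjusted p between 0.0542 and 0.113, and with the replicate block (edgeR adjusted p = 0.0594).

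By interval, the rise in the Pkd1 model fell between P3 and P7 (log2 fold change 0.71, SE 0.16; edgeR adjusted p = 0.0118; 14.4% of miRNAs called), with 0.09 (SE 0.16; edgeR adjusted p = 0.768) between P1 and P3, where 18.8% were called. Without P3 WT library 3 the former was 0.54, with an edgeR adjusted p of 0.0699. The call was also lost with the replicate block, without a low-count filter and with only the compared libraries (edgeR adjusted p of 0.0524, 0.062 and 0.0608), and with totals less the miR-10 reads (0.27). Library totals alone gave -0.51, where the median of all miRNAs was -1.27. Neither interval passed the edgeR test in the Pkd2 model, with 0.42 (SE 0.24; adjusted p = 0.433) from P1 to P3, where 0.268% of miRNAs were called, and 0.32 (SE 0.24; adjusted p = 0.471) from P3 to P7, where 4.16% were. All P7 WT libraries were above all P3 WT libraries in both models (as for 14.4% of miRNAs with Pkd1 and 13.9% with Pkd2).

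These rises with age depended on how libraries were scaled. With library totals alone the log2 fold change from P1 to P7 in WT was 0.14 for Pkd1 and 0.01 for Pkd2, while the median of all miRNAs tested was -0.68 and -0.78. With library totals less the miR-10 reads the values were 0.34 and 0.20, against medians of -0.48 and -0.60. Relative to the median miRNA, miR-21a-5p was higher at P7 under each of these scalings.

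miR-21a-3p did not pass the test between P1 and P7 in WT kidneys. The log2 fold change was 1.30 for Pkd1 (SE 0.50; edgeR adjusted p = 0.0743) and 0.27 for Pkd2 (SE 0.36; edgeR adjusted p = 0.629). Without P1 WT library 3 the edgeR adjusted p in the Pkd1 model was 0.0227, and DESeq2 gave 0.0486. Without P7 WT library 3 the log2 fold change there was 0.55 (edgeR adjusted p = 0.428). The 3 Pkd2 libraries of P1 (44.8 to 49.2 CPM) lay within the range of the P7 libraries (42.9 to 73.3 CPM).

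In KO kidneys both arms rose between P1 and P7. For miR-21a-5p the log2 fold change was 2.32 for Pkd1 (SE 0.17; edgeR adjusted p = 2.06e-07) and 2.02 for Pkd2 (SE 0.25; edgeR adjusted p = 5.46e-05). For miR-21a-3p it was 2.87 (SE 0.53; edgeR adjusted p = 0.00311) and 1.39 (SE 0.37; edgeR adjusted p = 0.0131). The share of miRNAs called was 17.1% and 24.4%. The 3p call in the Pkd2 model was lost without P1 KO library 2 or P7 KO library 1 (edgeR adjusted p of 0.0535 and 0.0578), with library totals alone (log2 fold change 0.58, edgeR adjusted p = 0.456) and with totals less the miR-10 reads (0.83, edgeR adjusted p = 0.087). The 3p call in the Pkd1 model was lost with library totals alone (1.79, edgeR adjusted p = 0.0744). This comparison shares its P7 KO libraries with that of KO and WT at P7.

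Ordered by mean level over the 12 groups, miR-21a-5p ran from 3067 ± 760 CPM in the Pkd2 KO kidneys at P1 to 20382 ± 1680 CPM in the Pkd1 KO kidneys at P7. The 4 highest groups were the P7 groups. Going up this order, the ranges of neighbouring groups separated at 3 places: above the Pkd2 WT group at P1, between the WT groups at P7 (Pkd2 below Pkd1), and between the Pkd1 WT and the Pkd2 KO groups at P7. All other neighbours overlapped, including the KO groups at P7 of the 2 models. The share of all miRNAs that separate at the 3 places was not computed, so these gaps only describe the order. For miR-21a-3p the order ran from 24.8 ± 15.0 CPM in the Pkd1 WT kidneys at P1 to 245 ± 85.2 CPM in the Pkd1 KO kidneys at P7. Its neighbouring groups separated once, between Pkd2 WT and Pkd2 KO at P7, as for 13.5% of miRNAs.

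The third comparison used the ratio of the arms within a library, which does not depend on how libraries are scaled. Over the 36 libraries there were between 0.214 and 2.31 reads of miR-21a-3p for every 100 reads of miR-21a-5p, with a median of 0.997. Counting error was small beside this range. In the library with fewest 3p reads (Pkd1 WT at P1, 92 reads) miR-21a-3p made up 0.214% of the reads of the arms, with a 95% Wilson interval from 0.174% to 0.262% that covers counting error only.

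At P7 in the Pkd1 model the ratio was 0.456, 0.432 and 1.36 reads per 100 in WT and 1.00, 1.58 and 0.989 in KO. The third WT library lay between the KO libraries. The difference in mean log2 ratio was 0.85 (SE 0.55), with an adjusted p of 0.584 in the limma fit of 228 hairpins and an exact two-sided permutation p of 0.3, for which the smallest possible value with 3 against 3 libraries is 0.1. At P1 the ratio was 0.488, 0.214 and 0.884 in WT and 0.980, 0.858 and 0.595 in KO (log2 difference 0.81 with SE 0.55; limma adjusted p = 0.552). At P3 it was 0.735, 0.460 and 1.18 in WT and 1.95, 0.608 and 0.927 in KO (log2 difference 0.49, SE 0.55; limma adjusted p = 0.987). The mean log2 ratio of KO libraries was above that of WT at each age of the Pkd1 model, and none of these differences passed the limma test.

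In the Pkd2 model the mean log2 ratios of KO and WT were closer. At P7 the WT libraries held 0.667, 1.01 and 1.22 reads per 100 and the KO libraries 2.12, 0.447 and 0.868, so that the KO libraries included the highest and the lowest ratio of the 6. The log2 difference was 0.00 (SE 0.54; limma adjusted p = 0.997; exact permutation p = 1). At P1 it was 0.15 (SE 0.54; limma adjusted p = 0.983) and at P3 0.09 (SE 0.54; limma adjusted p = 0.993). Over both models together the exact permutation p of the ratio was 0.25 at P1, 0.535 at P3 and 0.365 at P7, each over 400 splits. The limma fits of KO against WT called 0% of hairpins at each age and model but Pkd1 at P3, where they called 0.439%. At an unadjusted limma p under 0.05 there were 20 hairpins at P1 and 23 at P7 for Pkd1, and 14, 6 and 22 at P1, P3 and P7 for Pkd2, and no other tool was run on the ratios.

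**Figure D3:**
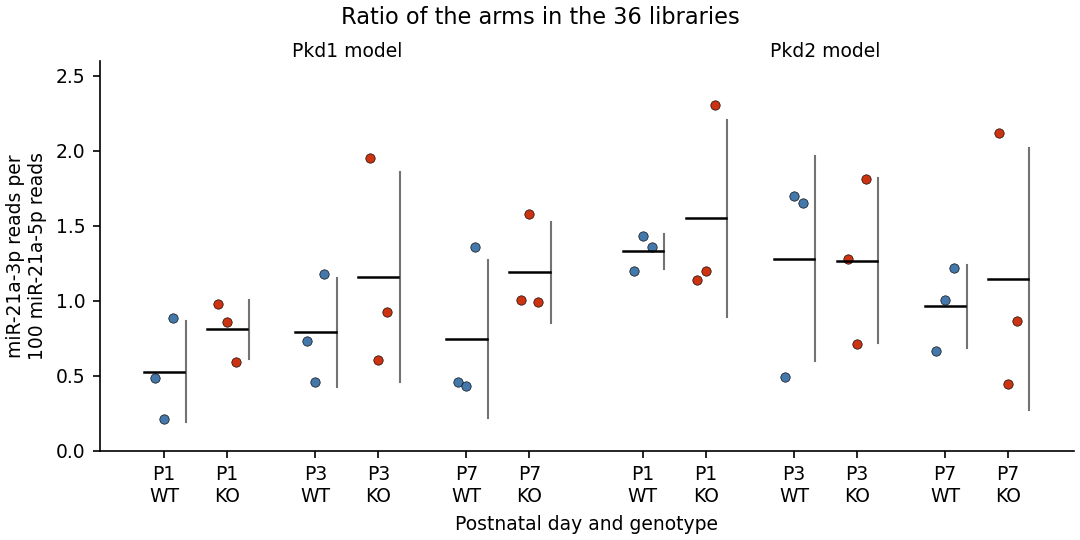
Reads of miR-21a-3p per 100 reads of miR-21a-5p in each library, by model, postnatal day and genotype (blue, WT; red, KO). Points are libraries, horizontal lines the means and vertical lines the mean ± SD of 3 libraries. The values run from 0.214 to 2.31, and KO and WT libraries overlap at every age in both models.

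The ratio did not change with age in a way that passed the test. In WT kidneys the log2 ratio at P7 differed from that at P1 by 0.51 for Pkd1 (SE 0.55; limma adjusted p = 0.615) and by -0.50 for Pkd2 (SE 0.54; limma adjusted p = 0.658), where 11% and 2.37% of hairpins were called. The KO effect on the log2 ratio at P7 differed from that at P1 by 0.04 for Pkd1 (SE 0.77; limma adjusted p = 0.981) and by -0.14 for Pkd2 (SE 0.76; limma adjusted p = 0.95), where limma called 0% of hairpins and 28 and 14 had an unadjusted p under 0.05. The median ratio was 1.21 reads per 100 over the Pkd2 libraries and 0.871 over the Pkd1 libraries, with widely overlapping ranges, and the median miR-10 share was 46.7% and 63.4%.

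Within groups the ratio moved with the composition of the library. In 32 of the 36 libraries the log2 ratio and the miR-10 share deviated from their group means in opposite directions, and in 4 in the same direction. Among Pkd2 KO kidneys at P7 the ratios of 2.12, 0.447 and 0.868 belonged to libraries with miR-10 shares of 41.1%, 74.1% and 57.4%. Among Pkd1 WT kidneys at P7 the ratio of 1.36 belonged to the library with a share of 57.9%, and the ratios of 0.456 and 0.432 to shares of 79.9% and 81.0%. Pearson's r of the log2 ratio with the miR-10 share was -0.75 and Spearman's rho -0.77 over the 36 libraries. For deviations from the group means r was -0.85 and rho -0.87, and r was -0.86 without the 2 libraries farthest from the median share. These are descriptions: the points share the library, and the miR-10 share was looked at after the ratios were seen. The part of library composition in the differences of the arms between KO and WT was not tested beyond the fit with the share as a covariate.

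In TMM-scaled CPM the arms moved in opposite directions with that share. The relation was not computed for unscaled shares of reads, and by those the picture differed. Among Pkd2 KO kidneys at P7 the library with a miR-10 share of 74.1% had a TMM factor of 0.488. It had the lowest unscaled share of reads of both arms in its group. Not every group was like this: in Pkd1 KO kidneys at P1 the library with most miR-10 had the highest unscaled 5p share. Within groups the log2 CPM of miR-21a-5p had an r of 0.72 with the miR-10 share, and that of miR-21a-3p an r of -0.77. Accordingly the log2 CPM of the arms, which come from the same hairpin, had an r of -0.48 with each other within groups. Over all 36 libraries, where the P7 KO libraries are high in both, it was 0.63. The within-group r of -0.48 was computed from TMM-scaled CPM alone. By unscaled share of reads the arms rose together in some groups. In Pkd2 WT kidneys at P7 the 5p arm took 0.446%, 0.583% and 0.652% and the 3p arm 0.00297%, 0.00588% and 0.00793%. In others, such as Pkd1 KO kidneys at P1, the arms did not rise together. Across the 246 hairpins with enough reads in both arms, the within-group r of the ratio with the miR-10 share had a median of -0.21 and was below 0 for 147. For 31 of them it was as low as for miR-21a or lower. The pooled within-group SD of the log2 ratio was 0.747 for miR-21a against a median of 0.443, and 41 of the 246 hairpins varied at least as much as miR-21a (a count that includes it).

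**Figure D4:**
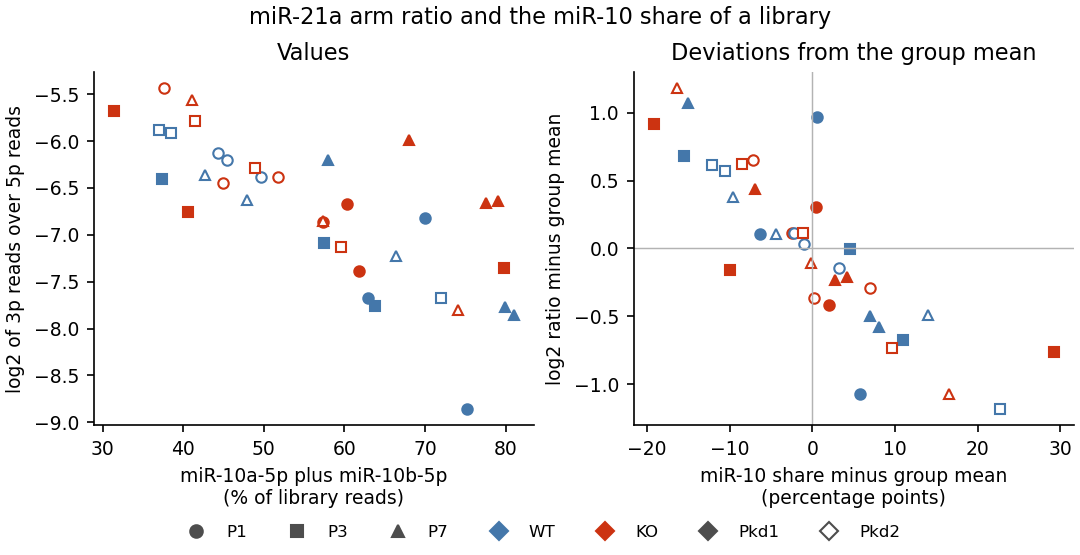
Log2 of miR-21a-3p reads over miR-21a-5p reads against the share of reads held by miR-10a-5p plus miR-10b-5p, in percent, for the 36 libraries (left), and both as deviations from the mean of the group (right). Circles, squares and triangles are P1, P3 and P7, blue WT and red KO, filled Pkd1 and open Pkd2. The ratio falls as the share rises, with r of -0.75 on the left and -0.85 on the right.

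When the miR-10 share entered the fit as a covariate, an alternative chosen after the data were seen, the P7 values of the arms had smaller errors. The log2 fold change of miR-21a-5p was 1.43 (SE 0.11) for Pkd1 and 0.95 (SE 0.16) for Pkd2. That of miR-21a-3p was 2.30 (SE 0.41) and 1.24 (SE 0.15). All 4 passed the edgeR test in that fit, with adjusted p of 2.84e-06, 0.00186, 0.00708 and 0.000234.

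**Figure D5:**
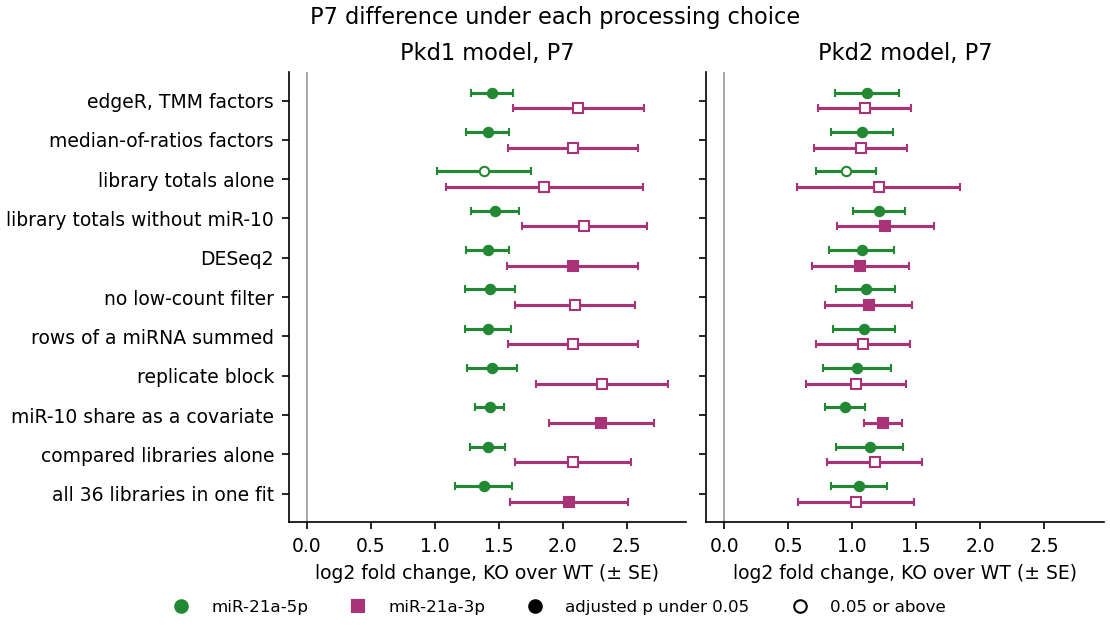
Log2 fold change of KO over WT at P7, with its SE, for miR-21a-5p (circles) and miR-21a-3p (squares) under the edgeR fit with TMM factors (top) and each alternative, in the Pkd1 (left) and Pkd2 (right) models. Filled symbols have an adjusted p under 0.05. All values are above 0, from 0.95 to 1.47 for miR-21a-5p and from 1.03 to 2.31 for miR-21a-3p, and the 5p call is lost with library totals alone.

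The miRNAs whose levels were most like each arm over the 36 libraries were found among 323 miRNAs with a mean of at least 10 CPM. For miR-21a-5p the highest Spearman's rho was with miR-677-5p (0.875), followed by miR-222-3p (0.859), miR-221-3p (0.855), miR-365-3p (0.851) and miR-23a-3p (0.829). For miR-21a-3p it was with miR-142a-5p, a product of a hairpin known from blood cells (0.783), followed by miR-27a-3p (0.739), miR-22-5p (0.715), and miR-141-3p (0.710) and miR-429-3p (0.657) of the miR-200 family. The lists share no miRNA. Each arm was not near the top of the other's list, with a rho of 0.303 between them. These values describe libraries that share their depth and miR-10 share, and they carry no test.

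At P7 edgeR called 2 of these 10 miRNAs for Pkd2, where it called 12.6% of all miRNAs, and 0 for Pkd1, where it called 0.425%. The 10 were picked by likeness over the same 36 libraries, P7 KO included, so these counts are not an independent result. For Pkd1, 2 of the 10 had an unadjusted edgeR p under 0.05 and DESeq2 called 1. miR-222-3p, which with miR-221-3p is known to repress the cell cycle inhibitor Cdkn1b, differed by 0.75 on the log2 scale for Pkd1 (SE 0.17; edgeR adjusted p = 0.0705) and by 0.73 for Pkd2 (SE 0.23; edgeR adjusted p = 0.0425). miR-141-3p had 0.22 (SE 0.42; edgeR adjusted p = 0.941) and 0.82 (SE 0.20; edgeR adjusted p = 0.0163). The other 8 passed the edgeR test at P7 in neither model. miR-677-5p, first on the 5p list, had values of 0.15 (SE 0.40) and -0.07 (SE 0.36) there.

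Other miRNAs linked to kidney injury, inflammation or fibrosis were set beside miR-21a in a list of 19, all of which were tested. The list is mixed, so its counts and median have no single expected direction. miR-29a-3p, miR-29b-3p, miR-29c-3p, miR-30c-5p, miR-200a-3p, miR-200b-3p and miR-192-5p were entered as known to be lower in fibrosis. The others were miR-155-5p, miR-146a-5p, miR-146b-5p, miR-132-3p, miR-212-3p, miR-214-3p, miR-199a-5p, miR-199a-3p, miR-34a-5p, miR-223-3p, miR-31-5p and miR-18a-5p. At P7 in the Pkd1 model edgeR called 0 of them, where it called 3 of 706 miRNAs. 3 of the 19 had an unadjusted edgeR p under 0.05, and DESeq2 called 0. The median log2 fold change of the list was 0.16 against 0.01 for all miRNAs. At P7 in the Pkd2 model 4 were higher and 1 was lower in KO, where 12.6% of all miRNAs were called, and the median was -0.02 against 0.02. The 4 were miR-31-5p (log2 fold change 2.37, SE 0.32), miR-29a-3p (1.31, SE 0.23), the p53-induced miR-34a-5p (1.23, SE 0.27) and miR-29b-3p (1.11, SE 0.31). miR-29 represses collagen genes and is known to be lower in fibrosis. The 1 lower was miR-192-5p of the proximal tubule (-1.13, SE 0.34). At P1 and P3 edgeR and DESeq2 each called 0 of the 19 in either model, and 1 had an unadjusted edgeR p under 0.05 for Pkd1 at P3 and 1 for Pkd2 at P1.

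Leukocytes hold miR-21 as well, so leukocyte miRNAs were read in the same libraries. The 6 leukocyte miRNAs on the list (miR-223-3p, miR-142a-3p, miR-142a-5p, miR-155-5p, miR-150-5p and miR-146a-5p) summed to between 434 and 559 CPM in the Pkd1 KO libraries at P7 and to between 417 and 686 in WT. For Pkd2 at P7 the sums were 698 to 886 CPM in KO and 714 to 814 in WT. The ranges overlapped in both models, no member was listed at 0, and edgeR and DESeq2 each called 0 of the 6 in each of the 6 comparisons of KO with WT. Over all miRNAs edgeR called 0.425% for Pkd1 and 12.6% for Pkd2 at P7. At an unadjusted edgeR p under 0.05 there was 1 of the 6 for Pkd1 at P3 and 1 for Pkd2 at P7. The median log2 fold change of the list at P7 was 0.02 against 0.01 for all miRNAs in Pkd1, and 0.31 against 0.02 in Pkd2, where 5 of the 6 values were positive, with miR-155-5p at 0.70 (SE 0.35; edgeR adjusted p = 0.202) and miR-142a-3p at 0.69 (SE 0.32; edgeR adjusted p = 0.162).

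Of the other cell type lists, at P7 in the Pkd2 model 4 of 5 miRNAs of the proximal tubule and nephron were lower in KO, where 12.6% of all miRNAs were called, with sums of 6048 to 12627 CPM against 14926 to 25399 in WT. For Pkd1 edgeR and DESeq2 called 0 of the 5, also at an unadjusted edgeR p under 0.05, with sums of 11854 to 13437 CPM in KO and 16464 to 28235 in WT. The part of the makeup of the tissue in the miR-21a values was not tested. Of the remaining lists for Pkd2 at P7, 2 of 5 epithelial miRNAs (miR-141-3p and miR-200c-3p) and 1 of 4 erythroid miRNAs (miR-144-5p) were higher, again beside 12.6% of all miRNAs. DESeq2 called 3 of the 4 erythroid miRNAs there, all 4 had an unadjusted edgeR p under 0.05, and their median log2 fold change was 1.12, with sums of 3511 to 5654 CPM in KO and 2243 to 2722 in WT. For Pkd1 at P3 all 4 also had an unadjusted edgeR p under 0.05, with a median of 1.19, and edgeR and DESeq2 called 0, and for Pkd1 at P7 the median was -0.11. By edgeR, 0 miRNAs were called in each comparison of KO with WT on the lists for stroma and smooth muscle, endothelium, liver, skeletal and heart muscle, and brain. DESeq2 called 3 of the 4 muscle miRNAs for Pkd1 at P1, and 2 of them and 1 of 2 endothelial miRNAs for Pkd2 at P7. At an unadjusted edgeR p under 0.05 there were 4 muscle miRNAs for Pkd1 at P1, 2 muscle, 1 endothelial and 1 brain miRNA for Pkd2 at P7, and 1 brain miRNA for Pkd2 at P3.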

How the data were processed

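Kidney RNA of 36 libraries was analysed by miRNA-seq. The authors removed adaptors, kept reads longer than 17 bases, aligned them to mm10 and to mature and hairpin sequences of miRBase release 21 with miRDeep2 (version not given in the sources used here), and deposited raw counts, not normalised, listing a mature miRNA once under each of its hairpins; the submitters' processing notes also name CASAVA 1.8.2. Groups were taken from the labels, which do not say whether libraries of a group came from separate animals, so p-values measure the spread between these libraries. A miRNA listed under several hairpins was given its highest row, which leaves 1915 of 2061 rows; miR-21a has a single hairpin.

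The 18 libraries of a model were fitted together with edgeR 4.0.16 in R 4.3.3 (quasi-likelihood F-test, TMM factors, 1 term per group, at least 10 counts in at least 3 libraries, Benjamini-Hochberg over 706 or 746 miRNAs), and all 36 for the difference between models (775 miRNAs). The SE is the log2 fold change divided by the square root of F. Ratios of arms, log2 with 0.5 added to each count, were fitted with limma 3.58.1 over 228 or 253 hairpins with a mean of at least 10 counts in each arm, beside an exact permutation test. A call is an adjusted p under 0.05. The scripts were tested on simulated data. No depth or library was corrected or left out except in the alternatives: other scaling factors (median-of-ratios, library totals, totals less miR-10 reads), DESeq2 1.42.0, no low-count filter, summed rows, a replicate block, other sets of libraries, and the miR-10 share as a covariate.

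The miRNAs named beside miR-21a are its relatives by sequence, for each arm the 5 with the highest rho of log2 CPM (prior count 2), and the lists of injury and cell type miRNAs. The members and the lists were chosen with earlier results of these data known. miRNA-seq does not read the Pkd1 and Pkd2 messengers, which leaves the genotype labels unchecked.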

Additional observations from a re-analysis of the deposited data

Results flagged for a closer look

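The KO effect on miR-21a-5p in the Pkd1 model differed between ages by the interaction test: the log2 fold change at P7 exceeded that at P1 by 1.53 (SE 0.23; edgeR adjusted p = 0.00514). The call was lost with library totals alone (1.05; edgeR adjusted p = 0.814) and with the replicate number as a block (edgeR adjusted p = 0.172). By CPM all 3 P7 KO libraries were above all 3 P7 WT libraries, as for 6.23% of miRNAs, while the P1 libraries overlapped. By unscaled share of reads KO lay above WT at P7, as for 4.25% of miRNAs. At P1 it also did (0.462% to 0.466% against 0.330% to 0.443%), as for 30% of miRNAs.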

How the results depend on the processing

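Over 44 differences (17 of each arm and 10 of the ratio), 372 alternatives other than those leaving out a library were computed, and 324 kept both direction and side of the threshold. 16 lost the call (13 of miR-21a-5p), 13 gained one (11 of miR-21a-3p) and 19 turned direction. Values below are log2 differences, and the cause of each change was not tested.

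Library totals alone moved the median of all miRNAs, to 0.38 for KO over WT at P1 in Pkd1 and, for Pkd2, 0.24 at P1 and 0.04 at P3. In WT the median was -1.27 (Pkd1) and -0.50 (Pkd2) from P3 to P7, and -0.68 and -0.78 from P1 to P7. In KO from P1 to P7 it was -1.16 and -0.97. KO over WT of miR-21a-5p lost the call at P7 for Pkd1 (1.38) and Pkd2 (0.95), and turned direction at P1 for Pkd1 (0.34) and Pkd2 (0.015) and at P3 for Pkd2 (0.092). KO over WT of miR-21a-3p turned direction for Pkd2 at P1 (0.22) and P3 (-0.023). From P3 to P7 in WT the 5p and 3p values turned to -0.51 and -0.37 for Pkd1 and to -0.020 and -0.51 for Pkd2. From P1 to P7 in WT the 5p calls were lost for Pkd1 (0.14) and Pkd2 (0.013), and the 3p value of Pkd2 turned to -0.40. From P1 to P7 in KO the 3p calls were lost for Pkd1 (1.79) and Pkd2 (0.58). The excess of the 5p KO effect at P7 over P1 lost its call for Pkd1 (1.05).

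With totals less the miR-10 reads the medians were -0.44 (Pkd1) and -0.40 (Pkd2) in WT from P3 to P7, -0.48 and -0.60 from P1 to P7, and, for Pkd2, -0.63 in KO from P1 to P7 and 0.19, 0.06 and 0.15 for KO over WT at P1, P3 and P7. The WT rise of miR-21a-5p lost its call from P3 to P7 for Pkd1 (0.27) and from P1 to P7 for Pkd1 (0.34) and Pkd2 (0.20), as did the rise of miR-21a-3p in Pkd2 KO from P1 to P7 (0.83). For Pkd2, KO over WT turned direction for the 3p arm at P1 (0.15) and the 5p arm at P3 (0.067) and was called for the 3p arm at P7 (1.26), and the 3p values in WT turned to -0.31 from P3 to P7 and -0.28 from P1 to P7.

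DESeq2 called KO over WT of miR-21a-3p at P7 for Pkd1 (2.08) and Pkd2 (1.06), its change in Pkd1 WT from P1 to P7 (1.27), and the excess of the 5p KO effect at P7 over P1 for Pkd2 (1.27). Without the low-count filter the 5p rise in Pkd1 WT from P3 to P7 lost its call (0.66) and KO over WT of the 3p arm at P7 gained one for Pkd2 (1.13). Fitting only the compared libraries, that 5p rise lost its call (0.72), and the 3p values of Pkd2 turned for KO over WT at P1 (0.0035) and in WT from P3 to P7 (-0.022). One fit of all 36 libraries called KO over WT of the 3p arm at P7 for Pkd1 (2.05). A pseudocount of 5 turned the ratio of Pkd2 at P7 to -0.00054.

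The miR-10 covariate, added after the data were seen, called KO over WT of miR-21a-3p at P7 for Pkd1 (2.30) and Pkd2 (1.24), its change in WT from P1 to P7 for Pkd1 (1.28) and Pkd2 (0.45), and for Pkd2 the excess of the KO effect at P7 over P1 of the 5p (1.08) and 3p (1.35) arms. It turned KO over WT of the 5p arm at P1 for Pkd1 (0.011) and the change of the ratio's KO effect for Pkd2 (0.25).

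Replicate numbers are shared by the groups, and the labels do not say whether they pair libraries. There were 18 pairs of a KO and a WT library with the same number, age and model. In 7 the correlation of their deviations from the group means was over 0.1 (range -0.489 to 0.456). In 5 the WT library correlated best with the KO library of its own number. With 3 libraries in a group, these correlations cannot decide whether a number marks a shared litter or batch. With the replicate block 3 calls of miR-21a-5p were lost: the WT rise from P3 to P7 for Pkd1 (0.72; edgeR adjusted p = 0.0524), that from P1 to P7 for Pkd2 (0.76; edgeR adjusted p = 0.0594) and the excess of the KO effect at P7 over P1 for Pkd1 (1.53; edgeR adjusted p = 0.172). The block changed no other call, and miR-21a-5p at P7 kept its own (edgeR adjusted p of 0.0178 for Pkd1 and 0.0399 for Pkd2).

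Leaving out each library in turn changed a call or a direction in 21 differences. KO over WT of miR-21a-5p ran from -0.13 to 0.25 at P3 for Pkd1, from -0.17 to 0.13 at P3 for Pkd2 and from 0.70 to 1.33 at P7 for Pkd2. For miR-21a-3p it ran from 1.84 to 2.81 at P7 for Pkd1 and, for Pkd2, from -0.20 to 0.11 at P1, from -0.30 to 0.27 at P3 and from 0.67 to 1.27 at P7. In WT the 5p arm ran from -0.065 to 0.24 (P1 to P3, Pkd1), from 0.54 to 0.86 (P3 to P7, Pkd1) and from 0.66 to 0.80 (P1 to P7, Pkd2), and the 3p arm from -0.037 to 0.97 (P3 to P7, Pkd1), from 0.55 to 1.90 (P1 to P7, Pkd1) and from -0.27 to 0.22 (P3 to P7, Pkd2). In Pkd2 KO from P1 to P7 the 3p arm ran from 0.96 to 1.57, and the excess of the 5p KO effect at P7 over P1 for Pkd2 from 0.84 to 1.50. For the ratio, KO over WT for Pkd2 ran from -0.18 to 0.33 at P1, from -0.51 to 0.45 at P3 and from -0.59 to 0.54 at P7, WT from P1 to P7 for Pkd1 from -0.027 to 0.99, and the change of the KO effect from -0.44 to 0.57 for Pkd1 and from -0.73 to 0.39 for Pkd2.

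The lowest library held 92 reads of the 3p arm.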
